A study of Mus musculus with 4 samples.

Results

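The genes described here are 37 genes of the lysosome, among them 11 cathepsins, 13 glycosidases, sulfatases and the acid lipase, 2 further peptidases, 3 activators or luminal carriers, 7 membrane proteins and the transcription factor Tfeb. They were listed by name and function, without a rule on measured values, but with earlier results of these data known. All 37 were found among 18193 named genes on the array, and all 37 were among the 12444 genes that entered the comparisons, which required a signal at or above the array median on at least 1 array. Each gene was read by its brightest probe set, the group of short probes that reports 1 transcript region, among those assigned to that symbol alone. Of the 37, 35 lay above the median on all 4 arrays. Ctse did so on 3 arrays and Tfeb on 1, so these genes entered through the arrays on which they were bright.

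Liver RNA of male mice was hybridised to 4 Affymetrix 3' expression arrays, with 1 array for each of 4 groups: wild-type mice on chow, LASS2-/- mice on chow, wild-type mice on high-fat diet and LASS2-/- mice on high-fat diet. LASS2 is the older name of Cers2, the enzyme that builds very-long-chain ceramides. Fat supplied 10% of calories in the chow and 60% in the high-fat diet, and the diets began at 3 weeks of age. The sources used here give neither the age at sampling nor how the LASS2 allele was made, and do not say if the RNA on an array was pooled. With no replicate arrays, no value below has an error between animals.

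Lysosomes are the acidic compartments in which cells break down proteins, glycans, glycolipids and lipoprotein lipids. Most of their enzymes are made as precursors in the endoplasmic reticulum, tagged with mannose 6-phosphate and carried to the lysosome by receptors. TFEB and its relatives bind a short palindrome, the E-box within the CLEAR element, near the start of many lysosomal genes. In liver, hepatocytes use lysosomes to degrade lipid droplets and glycogen, while macrophages are rich in cathepsins.

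The promoter letters are shown because the genes were not picked by reading their promoters. That E-box is, however, known from lysosomal genes as a class, and these genes were listed as lysosomal. Its share among them is therefore not an independent result. Promoter windows from RefSeq, build GRCm38.p6, span 250 bases before to 50 bases after an annotated start and were held for 33 of the 37 genes, the exceptions being Ctsb, Ctse, Ctsh and Npc1. The E-box searched was CACGTG, which reads the same on both strands, and a longer form, TCACGTG on either strand, which contains it. A gene with several annotated starts was counted when any of its windows held a match. The core was present in 11 of the 33 genes, 33.3%, against 8.09% of all 27025 genes with a window. Of genes entering the comparisons, 11.6% held it. The longer form was present in 10 of the 33, 30.3%, against 4.29% of all genes with a window, and against 6.91% of those entering the comparisons. Per window rather than per gene, 7.15% of all 32851 windows held the core and 3.77% the longer form.

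The 100 bases before the start are given below for 5 genes with E-boxes there, and for Hexa, in which this stretch holds none. Where a gene had several annotated starts, the window with the most E-boxes before its start was chosen. Capitals mark each E-box, and sequences run 5′ to 3′ on the gene's strand. Arsa (chr15:89477425-89477524, minus strand) and Lgmn (chr12:102439093-102439192, minus strand) were genes with an E-box that were higher on high-fat diet in the results below, as was Hexa (chr9:59539440-59539539, plus strand) without one. Lamp1 (chr8:13159061-13159160, plus strand) had the most E-boxes. Mcoln1 (chr8:3500419-3500518, plus strand) had several, and Ctsd (chr7:142387828-142387927, minus strand) had a further one upstream of the stretch shown.
Arsa: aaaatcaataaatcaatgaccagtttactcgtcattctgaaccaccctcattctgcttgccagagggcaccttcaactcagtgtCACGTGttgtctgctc
Lgmn: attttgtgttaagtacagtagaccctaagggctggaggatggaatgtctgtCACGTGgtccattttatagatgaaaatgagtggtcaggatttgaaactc
Ctsd: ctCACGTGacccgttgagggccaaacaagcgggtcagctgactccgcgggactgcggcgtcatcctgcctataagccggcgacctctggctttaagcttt
Mcoln1: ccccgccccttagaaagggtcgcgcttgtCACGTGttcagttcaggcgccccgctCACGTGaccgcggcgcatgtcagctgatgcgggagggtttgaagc
Lamp1: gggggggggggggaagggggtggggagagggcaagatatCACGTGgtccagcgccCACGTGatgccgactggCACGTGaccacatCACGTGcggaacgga
Hexa: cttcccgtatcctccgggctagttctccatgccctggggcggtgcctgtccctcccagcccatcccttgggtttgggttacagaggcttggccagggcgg

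In total 18 E-boxes were found in the windows of these 11 genes, and 5 genes had more than 1. Of the 18, 12 began within the 100 bases before the start, in 8 genes. Lamp1 carried 4, which began 61, 45, 28 and 15 bases before the start. In Mcoln1 they began 71 and 45 bases before it, in Lgmn 49, in Glb1 48, in Naglu 73 and in Arsa 16. Ctsl, the 1 gene with the core alone, had it 236 bases before the start. A match is a description of letters and does not show that a factor binds there.

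**Figure D1:**
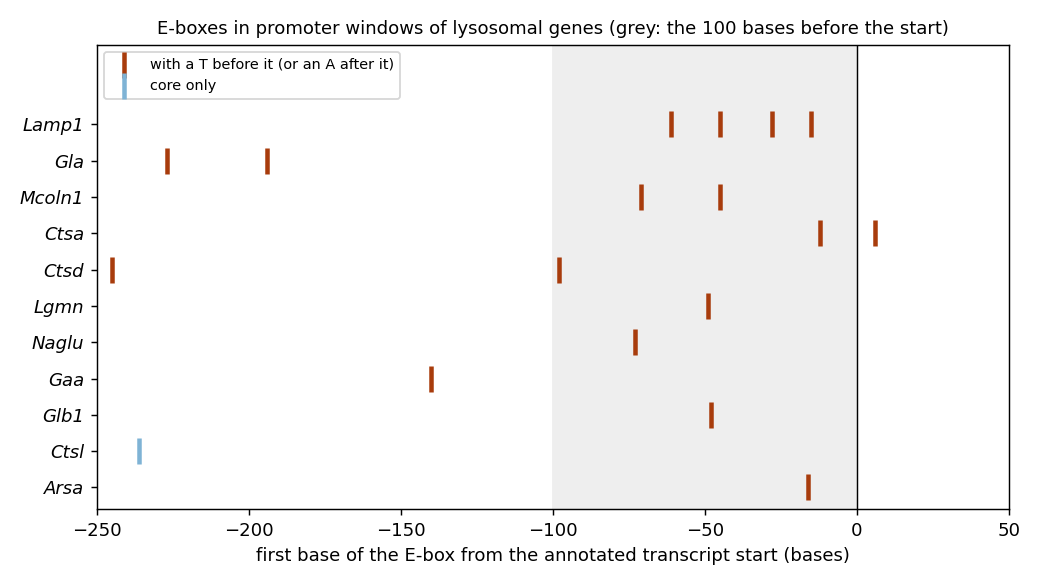
Position of each CACGTG in the promoter windows of the 11 lysosomal genes that hold one, in bases from the annotated start. Red marks have the longer form on either strand, the blue mark in Ctsl is the core alone, and 12 of 18 sites fall in the grey stretch of 100 bases before the start.

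The deposited log2 signals had been scaled by the authors to nearly the same level, with a trimmed mean of 496 on the linear scale on every array. All 9 measured hepatocyte markers were bright on all 4 arrays, from 13.48 to 15.77 log2. Cers2, the targeted gene, had 12.46 on wild type chow, 12.32 on LASS2-/- chow, 12.25 on wild type high-fat diet and 12.32 on LASS2-/- high-fat diet. It was thus not lower on both arrays labelled LASS2-/-. Its mean genotype effect was -0.04 ± 0.10 log2 (limma adjusted p = 0.948). The position of its probes relative to the altered part of the gene is unknown here, so every genotype direction below is that of the arrays labelled LASS2-/-. In bulk RNA, fewer cells of a type and less RNA per cell cannot be told apart.

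Most lysosomal genes differed little between the arrays, as did other bright genes. The range from the lowest to the highest array had a median of 0.36 log2 over the 37 genes and 0.52 over all 12444 genes, and 64.9% of the lysosomal genes against 48.3% of all genes stayed within 0.5 log2. Spread falls with signal on these arrays, and 24 of the 37 were among the brightest 3111 genes, where the median range was 0.35 log2 for the lysosomal genes and 0.30 for all genes. The steadiest was Ctsl, cathepsin L, at 14.22, 14.24, 14.21 and 14.22 on wild type chow, LASS2-/- chow, wild type high-fat diet and LASS2-/- high-fat diet. Man2b1, the alpha-mannosidase, and Laptm4a, a membrane protein, followed with ranges of 0.063 and 0.091 log2. Lamp2 and Lamp1, the abundant glycoproteins of the lysosomal membrane, had ranges of 0.14 and 0.18 log2.

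The arrays were not used evenly by these genes. The highest value of a gene lay on a high-fat array in 29 of 37 genes, 16 on wild type and 13 on LASS2-/-, where over all genes the corresponding shares were 24.1% and 27.5%. The lowest value lay on a chow array in 27 of 37 genes, 13 on wild type and 14 on LASS2-/-, against 24.8% and 28.1% of all genes.

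**Figure D2:**
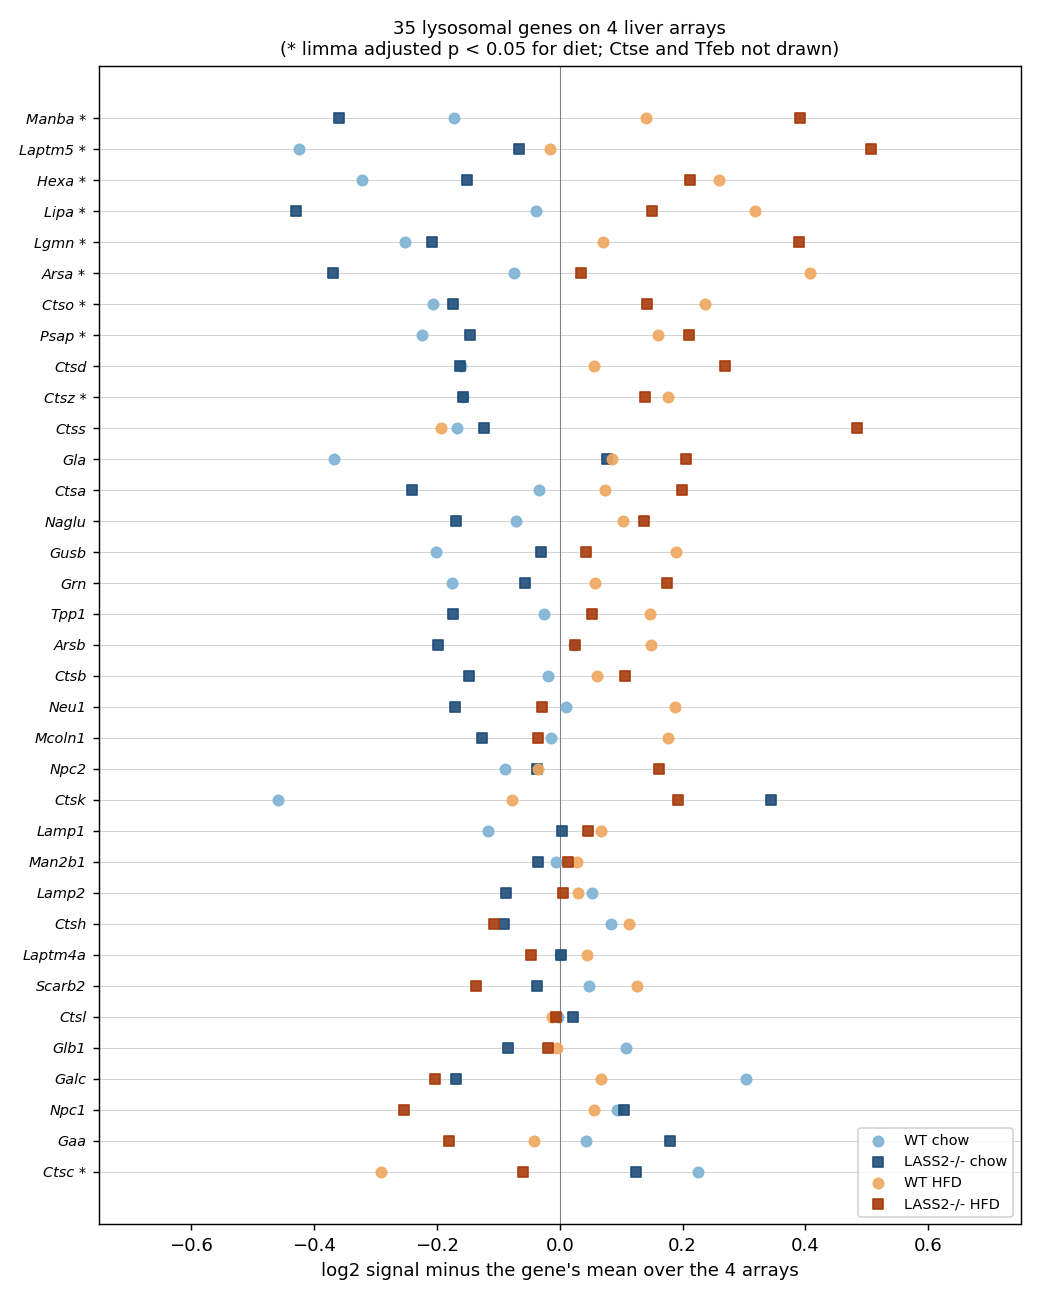
Log2 signal of 35 lysosomal genes on each of the 4 arrays, as the difference from the gene's own mean, ordered by the mean diet effect. Circles are wild type, squares LASS2-/-, blue chow and orange to red high-fat diet, with 1 array per group. The high-fat arrays lie to the right for most genes in the upper part. Ctse and Tfeb, with ranges of 5.19 and 3.62 log2, are not drawn.

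On the high-fat diet, 10 of the 37 lysosomal genes rose and 1 fell. Those that rose were the cathepsins Ctse, Ctso and Ctsz, the asparaginyl endopeptidase Lgmn, the glycosidases Hexa and Manba, the sulfatase Arsa, the acid lipase Lipa, the saposin precursor Psap and the membrane protein Laptm5. The gene that fell was Ctsc, dipeptidyl peptidase I. Apart from Ctse, the increases were small, from 1.24-fold in Ctsz to 1.45-fold in Manba. These calls are from limma on an additive model of diet and genotype, with Benjamini-Hochberg adjustment over all 12444 genes and a threshold of 0.05. In that fit, 6.16% of all genes rose and 5.02% fell, and 27.0% of the lysosomal genes against 6.16% passed as higher. These shares, and those of the gene lists below, are not matched for signal. The residual SD was 0.128 log2 for the brightest 3111 genes and 0.789 for the dimmest 3111. Among the 37 lysosomal genes, 24 were in the brightest 3111, where an effect of a given size passes more easily. A share passing among genes of like signal was not tested. The median diet effect was 0.17 log2 over the lysosomal genes and 0.02 over all genes, and 28 of 37 were above 0 against 52.2% of all genes. The error of this fit is the difference of the genotype ratio between diets, with 1 residual degree of freedom per gene, and is drawn mostly from genes of like signal. Without the trend of variance on signal, 0 lysosomal genes passed (and 0 of all genes). In that setting 3 lysosomal genes were higher and 0 lower at an unadjusted p under 0.05, and 1048 and 741 of all genes.

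The overlap of the diets was also counted on the same arrays without a model. Both high-fat arrays lay above both chow arrays in 22 of 37 lysosomal genes, 59.5%, against 27.3% of all genes. Both lay below in 4, which were Ctsc, Ctsl, Gaa and Npc1, or 10.8%, against 23.3% of all genes. The diet ratios of the genotypes share no array. Both were above 0 in 24 of 36 lysosomal genes, 66.7%, and both below 0 in 5, against 36.8% and 31.6% of 11238 genes.

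**Figure D3:**
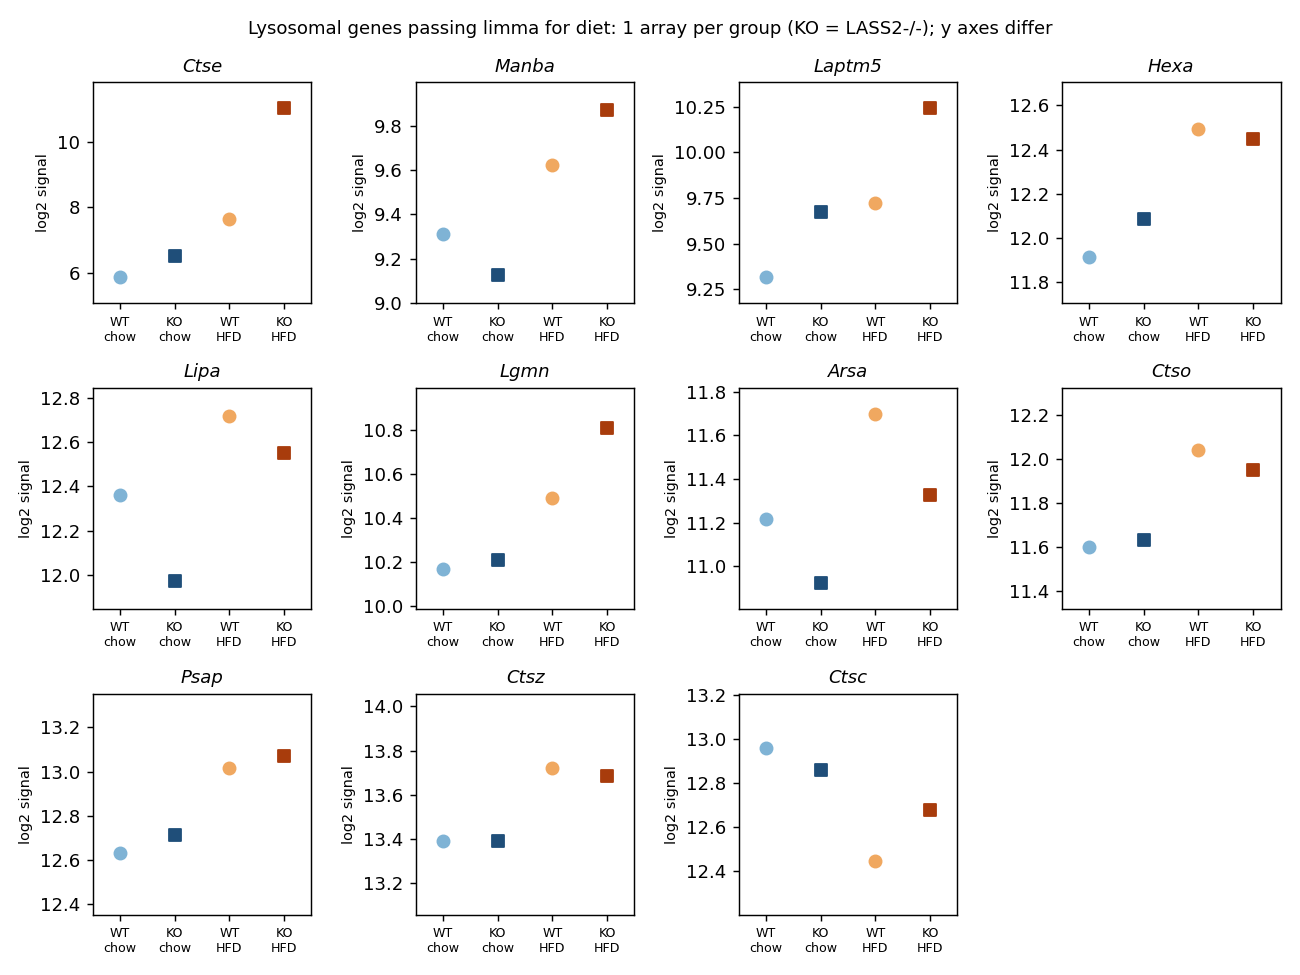
Log2 signal on each of the 4 arrays for the 11 lysosomal genes that passed limma for diet. Each panel has its own y axis, circles are wild type and squares LASS2-/- (KO), and each point is 1 array. In every panel but that of Ctsc both high-fat points lie above both chow points.

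Among the cathepsins, 3 of 11 rose and 1 fell, where 6.16% and 5.02% of all genes did. Ctse, an aspartic protease known from stomach and immune cells, had 5.85 on wild type chow, 6.51 on LASS2-/- chow, 7.64 on wild type high-fat diet and 11.04 on LASS2-/- high-fat diet. The last array stands far above the others, and the first lies under the array median used here as the floor of a ratio. The wild type ratio of high-fat diet to chow was therefore a bound, at least 2.76-fold, and the LASS2-/- ratio was 23.2-fold. The mean diet effect was 3.16 ± 0.45 log2 (moderated SE, limma adjusted p = 0.000358). That effect uses the wild type chow value under the median as deposited. With every value under its array's median set to that median, it was 3.00 ± 0.50 (limma adjusted p = 0.00154). Ctse did not pass with robust moderation or without the trend. A second Ctse probe set had 6.10, 6.75, 6.61 and 6.04 on the arrays in the same order and did not follow the first: its diet ratio was 0.51 log2 in wild type and -0.71 in LASS2-/-.

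Ctso, a cysteine cathepsin, had 11.60 and 11.63 on the chow arrays and 12.04 and 11.95 on the high-fat arrays, wild type first (0.38 ± 0.10, limma adjusted p = 0.025). Ctsz, a carboxypeptidase, had 13.39 on both chow arrays and 13.72 and 13.69 on high-fat diet (0.31 ± 0.08, limma adjusted p = 0.0226). In both genes the diets did not overlap and the genotypes nearly coincided. Ctso did not pass with arrays scaled to equal medians or with the mean of all probe sets, and Ctsz did not pass with no filter on signal or with the mean of all probe sets. Both other Ctsz probe sets were also higher on the high-fat diet, by 0.17 and 0.28 log2 on average.

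Ctsc, which activates the granule proteases of immune cells, had 12.96 on wild type chow, 12.86 on LASS2-/- chow, 12.44 on wild type high-fat diet and 12.68 on LASS2-/- high-fat diet. It fell by 0.35 ± 0.10 on the log2 scale (limma adjusted p = 0.0361). Another Ctsc probe set above the median on all arrays had 9.21, 9.02, 6.61 and 7.65 in the same order, a lower signal on high-fat diet by 1.98 log2 on average. The brightest probe set thus had the smaller difference. Ctsc did not pass with quantile normalization, equal medians or no filter.

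Another 7 cathepsins did not pass. Ctsd, the main aspartic protease of lysosomes, had 11.82 on both chow arrays, 12.03 on wild type high-fat diet and 12.25 on LASS2-/- high-fat diet, with a diet effect of 0.32 ± 0.10 and a limma adjusted p of 0.054. Ctsa, the serine carboxypeptidase that protects Neu1 and Glb1, had 11.37, 11.17, 11.48 and 11.60 in the order of the groups above, and Ctsb had 13.44, 13.31, 13.52 and 13.56. Ctsh, an aminopeptidase, had 13.57, 13.40, 13.60 and 13.38, where the arrays labelled LASS2-/- were the lower ones. Ctss, which trims the invariant chain in antigen-presenting cells, stood out on 1 array, with 12.03, 12.07 and 12.00 on the first 3 groups and 12.68 on LASS2-/- high-fat diet. Ctsk, the collagen-degrading cathepsin of osteoclasts, was dim, with 6.37, 7.17, 6.75 and 7.02, and its lowest array was wild type chow.

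Of the glycosidases, sulfatases and acid lipase, 4 of 13 rose and 0 fell, against 6.16% and 5.02% of all genes. Hexa, the alpha subunit of beta-hexosaminidase, had 11.91 on wild type chow, 12.09 on LASS2-/- chow, 12.50 on wild type high-fat diet and 12.45 on LASS2-/- high-fat diet. Its diet effect was 0.47 ± 0.10 (1.39-fold, limma adjusted p = 0.00618). Lipa, which releases fatty acids and cholesterol from lipoprotein lipids and droplets, had 12.36, 11.97, 12.72 and 12.55 in the same order, with an effect of 0.47 ± 0.10 (1.38-fold, limma adjusted p = 0.00597). The lowest array for Lipa was LASS2-/- chow. Both other Lipa probe sets were higher on high-fat diet too, by 0.28 and 0.54 log2 on average. Lipa did not pass when probe sets ending in _x_at or _s_at, which can read several transcripts, were left out.

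Arsa, which removes sulfate from the glycolipid sulfatide, had 11.22 on wild type chow, 10.92 on LASS2-/- chow, 11.70 on wild type high-fat diet and 11.33 on LASS2-/- high-fat diet (0.44 ± 0.11, 1.36-fold, limma adjusted p = 0.0145). It was higher on the high-fat array and lower on the LASS2-/- array in each pair. Manba, the beta-mannosidase, had 9.31, 9.12, 9.62 and 9.87 (0.53 ± 0.16, limma adjusted p = 0.0433). Its rise was larger between the LASS2-/- arrays, 1.68-fold, than between the wild type arrays, 1.24-fold. Manba did not pass with any of the alternatives other than leaving out the _x_at and _s_at probe sets, and its limma adjusted p with values floored at the array median was 0.0586.

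The remaining 9 enzymes of this group did not pass. Gusb, beta-glucuronidase, had a diet effect of 0.23 ± 0.12, Naglu, which acts on heparan sulfate, 0.24 ± 0.16, Arsb, the sulfatase of dermatan sulfate, 0.17 ± 0.11 and Neu1, the sialidase, 0.16 ± 0.15. Gla, alpha-galactosidase, had 7.28 on wild type chow and between 7.73 and 7.85 on the other arrays. Man2b1 and Glb1, beta-galactosidase, had effects of 0.04 and -0.02. Effects below 0 were measured for Gaa, which degrades glycogen (-0.22 ± 0.13, while a second probe set had 0.24), and Galc, which cleaves galactosylceramide (-0.13 ± 0.21). The values thus fell on both sides of 0 within a single class of enzyme.

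Of the other 2 peptidases, Lgmn, which cleaves after asparagine and matures several cathepsins, had 10.17 and 10.21 on chow and 10.49 and 10.81 on high-fat diet, wild type first (0.46 ± 0.13, 1.38-fold, limma adjusted p = 0.0314). It did not pass with quantile normalization, equal medians or the mean of all probe sets. Tpp1, tripeptidyl peptidase, had 12.20, 12.05, 12.37 and 12.27 and an effect of 0.20 ± 0.09 (limma adjusted p = 0.213). Psap, the precursor of the saposins that present sphingolipids to their hydrolases, had 12.63 and 12.71 on chow and 13.02 and 13.07 on high-fat diet (0.37 ± 0.09, 1.29-fold, limma adjusted p = 0.0127). A second Psap probe set was higher by 0.28 log2 in wild type and 0.53 in LASS2-/-. Grn, progranulin, had 13.26, 13.38, 13.49 and 13.61 and an effect of 0.23 ± 0.08 (limma adjusted p = 0.0895), and Npc2, the luminal cholesterol carrier, had 0.13 ± 0.09.

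Of the 7 membrane proteins, 1 rose, where 6.16% of all genes did. Laptm5, a protein of blood cell lysosomes, had 9.31 on wild type chow, 9.67 on LASS2-/- chow, 9.72 on wild type high-fat diet and 10.24 on LASS2-/- high-fat diet (0.49 ± 0.14, limma adjusted p = 0.0362). LASS2-/- chow and wild type high-fat diet lay close together, and the array with both stood highest. Laptm5 did not pass with quantile normalization, equal medians or the mean of all probe sets. Every Laptm5 probe set that reached the median on any array ends in _x_at or _s_at. With those left out, the gene did not enter the comparisons. Another 2 Laptm5 probe sets above the median on all arrays were higher by 0.27 and 0.011 log2 on high-fat diet. Npc1, the membrane transporter that passes cholesterol out of the lysosome, had 11.45, 11.46, 11.41 and 11.10, and its effect was -0.20 ± 0.11 (limma adjusted p = 0.32). Lamp1 had 0.11 ± 0.08, Lamp2 0.03 ± 0.08, Mcoln1, a calcium channel, 0.14 ± 0.14, Scarb2, the carrier of glucocerebrosidase, -0.01 ± 0.09 and Laptm4a -0.0024 ± 0.08.

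Tfeb, the transcription factor of the lysosomal programme, was near or below the median signal, at 5.54 on wild type chow, 5.42 on LASS2-/- chow, 6.60 on wild type high-fat diet and 2.98 on LASS2-/- high-fat diet. Only the wild type high-fat value was above the array median, so the other 3 values carry little information on level. The ratio of high-fat diet to chow in wild type was at least 1.35-fold, and no ratio was formed in LASS2-/-, where both arrays were under the floor.

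The diet ratios within each genotype were mostly under 2-fold. In wild type, Ctse alone was at least 2-fold higher among 37 lysosomal genes and 0 were 2-fold lower, where 2.26% and 1.32% of all genes were. At 1.5-fold the wild type counts were again 1 and 0, against 8.18% and 5.43% of all genes. In LASS2-/-, Ctse alone was 2-fold higher among 36 genes with a ratio and 0 were lower, against 3.26% and 1.98% of all genes. At 1.5-fold, Ctse, Ctss, Lgmn and Manba were higher in LASS2-/- and 0 lower, where 10.6% and 7.55% of all genes were. The share of lysosomal genes past these folds was near or under that of all genes. The shift was therefore one of many small differences: the median diet ratio was 0.18 log2 in wild type and 0.21 in LASS2-/-, with 29 of 37 and 27 of 36 genes above 0, where the medians of all genes were 0.02 and 0.02.

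**Figure D4:**
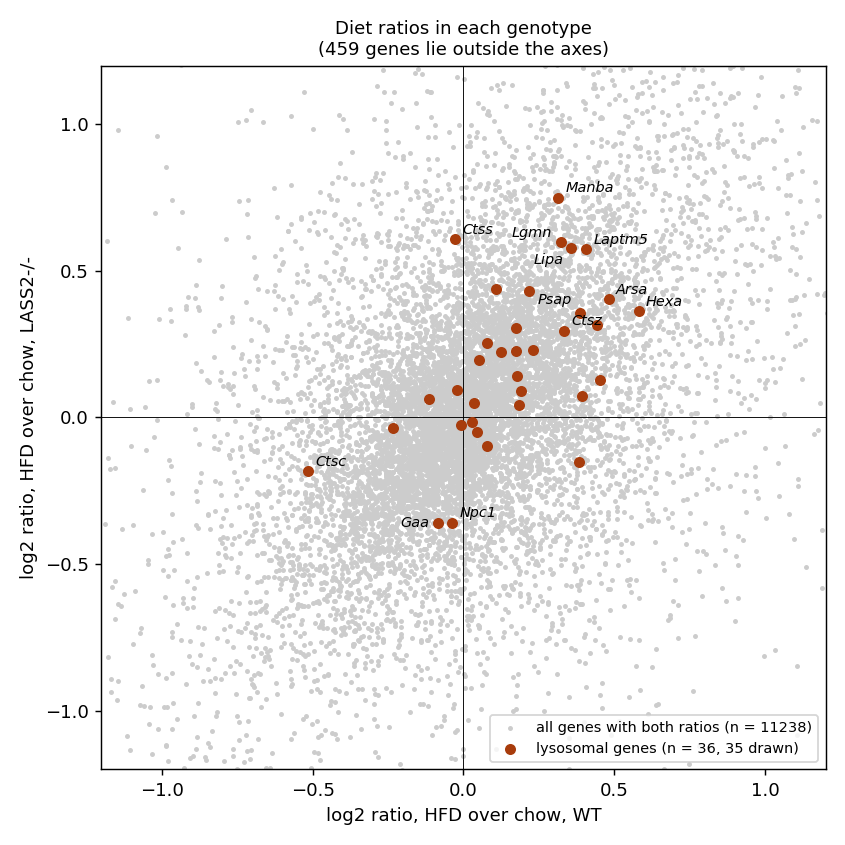
Log2 ratio of high-fat diet to chow in wild type (x axis) against that in LASS2-/- (y axis). Grey points are all 11238 genes with both ratios, of which 459 lie outside the axes, and red points are 35 of the 36 lysosomal genes with both ratios. Ctse is outside, at 1.46 and 4.54. Most red points lie in the upper right quadrant.

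No lysosomal gene passed for genotype. In limma 0 of 37 rose and 0 fell with the LASS2-/- label, where 0.514% and 0.338% of all genes did, and 6 of 37, or 16.2%, had an unadjusted p under 0.05, as did 10.3% of all genes. Their median genotype effect was -0.02 log2, against 0.01 over all genes. Both arrays labelled LASS2-/- lay above both wild type arrays in 2 lysosomal genes, Ctsk and Ctss, where 14.8% of all genes did so. Both lay below in 8 genes, or 21.6%, where 13.4% of all genes did so. These were Ctsh, Galc, Glb1, Lamp2, Mcoln1, Neu1, Scarb2 and Tfeb, of which Tfeb was above the median on wild type high-fat diet alone. Among genes above the median on all 4 arrays, 7 of 35 lysosomal genes and 13.5% of all genes lay below.

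The 6 genes with an unadjusted p under 0.05 for genotype went both ways. Ctse had a genotype effect of 2.03 ± 0.45 log2 (limma adjusted p = 0.0532), which rested on the high-fat pair, where it was 10.6-fold higher on the array labelled LASS2-/-, while on chow it was at least 1.26-fold higher. With the _x_at and _s_at probe sets left out, Ctse rose for genotype, read by the same probe set. It did not pass for genotype with any of the other alternatives. With values floored at the array median, the genotype effect was 1.87 ± 0.50 (limma adjusted p = 0.125). The second Ctse probe set, which reached the median on 2 arrays, had a genotype ratio of 0.65 log2 for the chow pair. For the high-fat pair its ratio was -0.57, opposite to the first. Laptm5 had 0.44 ± 0.14 (adjusted p = 0.223) and Ctss 0.36 ± 0.13 (adjusted p = 0.296). Lower values on the LASS2-/- arrays were measured for Arsa at -0.33 ± 0.11 (adjusted p = 0.223), Lipa at -0.28 ± 0.10 (adjusted p = 0.278) and Ctsh at -0.20 ± 0.08 (adjusted p = 0.4), all in limma. For Lipa, all 3 probe sets were lower on the LASS2-/- array on both diets.

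On chow, 0 of 36 lysosomal genes were 2-fold higher or lower on the array labelled LASS2-/-, against 1.23% and 0.449% of all genes, and at 1.5-fold only Ctsk was higher and 0 lower, against 6.00% and 3.55%. The median ratio was -0.00022 log2, with 18 genes above and 18 below 0. On high-fat diet, Ctse was 2-fold higher and 0 were lower among 37 genes, against 1.56% and 0.517% of all genes. At 1.5-fold Ctse and Ctss were higher and 0 lower there, against 6.06% and 3.51%. The chow and high-fat genotype ratios come from separate arrays, and they pointed the same way in 22 of 36 lysosomal genes, 10 upward and 12 downward, or 27.8% and 33.3%, against 29.3% and 26.9% of 11152 genes. The genotype ratio differed between diets by 0.5 log2 or more in Ctse, Ctss and Ctsk, 3 of 36 genes with both ratios, where 20.5% of all genes did. With 1 array per group this difference has no test.

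**Figure D5:**
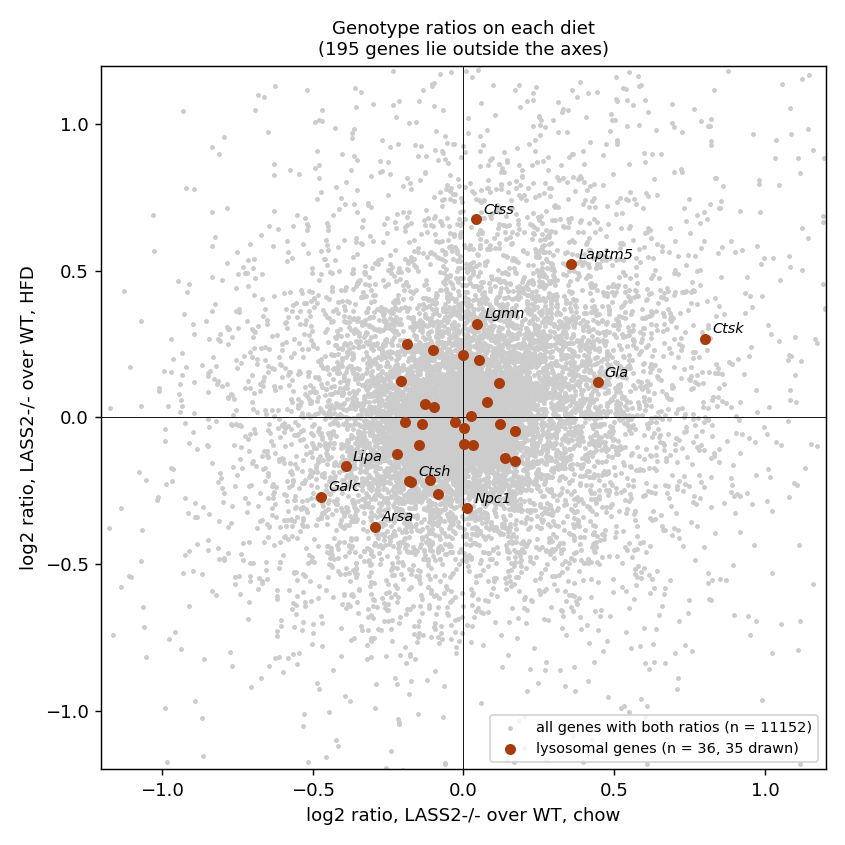
Log2 ratio of the arrays labelled LASS2-/- to wild type on chow (x axis) and on high-fat diet (y axis). Grey points are 11152 genes with both ratios, of which 195 lie outside the axes, and red points are 35 of 36 lysosomal genes. Ctse, at 0.33 and 3.41, is outside. The red points surround 0, with Ctsk, Ctss and Laptm5 apart from the rest.

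Other lysosomal genes, taken from lists set by function, gave mixed counts for diet, for which 6.16% of all genes rose and 5.02% fell. Of 23 further hydrolases and activators, 5 rose and 1 fell, with median diet ratios of 0.16 in wild type and 0.14 in LASS2-/-. Dnase2a, the acid DNase, had 12.83 and 12.48 on chow and 13.66 and 13.32 on high-fat diet (0.83 ± 0.08, limma adjusted p = 2.08e-05), and Scpep1, a serine carboxypeptidase, had 0.58 ± 0.10. Plbd1 had 0.46 ± 0.12, and Aga and Asah1, the acid ceramidase, also rose. Gm2a, the activator that lifts its glycolipid out of the membrane for beta-hexosaminidase, fell by 0.54 ± 0.09 (limma adjusted p = 0.00181), the direction opposite to that of Hexa.

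Of 16 genes of delivery and enzyme activation, 4 rose and 0 fell, with medians of 0.08 and 0.23. Sorl1, a sorting receptor, had 7.42, 7.26, 9.10 and 7.87, with wild type high-fat diet as the highest array (1.14 ± 0.27, limma adjusted p = 0.0134). Vps41 (0.57 ± 0.12) and Vps35 (0.43 ± 0.09), which act in traffic to and from late endosomes, rose, as did Sumf1 (0.41 ± 0.12), which activates sulfatases such as Arsa and Arsb. Against 6.16% and 5.02% of all genes, 2 of 21 further membrane proteins rose and 1 fell. These were Laptm4b (0.82 ± 0.10), the amino acid exporter Slc36a1 (0.59 ± 0.17) and, falling by 0.39 ± 0.11, Sidt2. Of 19 TFEB relatives and nutrient-sensing genes, 0 passed limma and 6 had an unadjusted p under 0.05, which 23.8% of all genes had for diet. Their largest effects were those of Rragd (0.88 ± 0.32) and Fnip2 (0.39 ± 0.13). Of 23 autophagy genes, 2 rose, Sqstm1 and Gabarapl1, and 1, Atg13, fell, near the shares of all genes, 6.16% and 5.02%. Cstb, an intracellular inhibitor of cysteine cathepsins, had 12.94, 12.93, 13.25 and 13.95 and rose by 0.66 ± 0.13 (limma adjusted p = 0.00386), while Cst3, the secreted cystatin C, had 0.21 ± 0.09 and did not pass. For genotype, 0 members of these 6 lists passed limma, where 3, 1, 6, 2, 3 and 1 had an unadjusted p under 0.05 in the order of hydrolases, delivery, membrane proteins, TFEB relatives, autophagy and cystatins, and 10.3% of all genes had.

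The diet ratios of genes with the longer E-box had nearly the medians of those without it. The 10 genes with it had median diet ratios of 0.19 in wild type and 0.22 in LASS2-/-, and 2 of them rose, Arsa and Lgmn. The 23 genes whose windows lack it had medians of 0.18 and 0.21, and 7 of them rose and 1 fell. Over all genes entering, 6.16% rose and 5.02% fell with diet. Lamp1, with the most E-boxes in the sequences above, was among the genes with smaller ranges. It was also bright, from 13.84 to 14.03 log2, and spread falls with signal. A link of E-boxes to the diet ratios was not tested. Of all genes entering that had a window, 6.91% held the longer form. The longer form was also present in 7 of 12 genes of delivery and enzyme activation with a window, 58.3%, in 5 of 17 TFEB relatives and nutrient-sensing genes, in 4 of 22 further membrane proteins, in 3 of 18 autophagy genes and in 2 of 22 further hydrolases, 9.09%.

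Markers of other cells were read on the same arrays. Of 23 macrophage and Kupffer cell markers, 21 entered, and Itgam and Trem2 were under the array median throughout. Their summed linear signal was 33501 on wild type chow, 40657 on LASS2-/- chow, 33347 on wild type high-fat diet and 49166 on LASS2-/- high-fat diet. The sum was nearly level between diets in wild type and higher on high-fat diet in LASS2-/-. Single markers differed from it in both directions. On high-fat diet in wild type, Gpnmb was at least 2.38-fold higher and C1qb 1.17-fold higher. Adgre1 was 1.08-fold lower and Clec4f 1.04-fold lower there. Median diet ratios of the markers were -0.02 in wild type and 0.28 in LASS2-/-. Their median genotype ratios were 0.24 on chow and 0.58 on high-fat diet. In limma, 14 of the 21 had an unadjusted p under 0.05 for genotype, as did 10.3% of all genes. With diet 3 rose, Lyz2, Fcer1g and Gpnmb, and 1 fell, Cd163, where 6.16% and 5.02% of all genes did. For genotype, Marco, Lyz2, Mpeg1 and Tyrobp rose and Cd163 fell, where 0.514% and 0.338% of all genes did. Ctss, Laptm5 and Ctse were highest on LASS2-/- high-fat diet, the array with the highest macrophage sum. They are 3 of the 13 among 37 lysosomal genes that were highest there, as were 27.5% of all genes. The others include Ctsb, Ctsd and Manba. The part of macrophage RNA in the lysosomal values was not tested.

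Among the other marker lists, 3 of 9 hepatocyte markers fell with diet, Cps1, Fgb and Ahsg, and 3 of 10 stellate cell markers rose, Col1a2, Col3a1 and Dcn. Of 12 endothelial markers, Cdh5 rose. Over all genes, 6.16% rose and 5.02% fell with diet. Of 4 neutrophil, 8 lymphocyte and plasma cell and 4 cholangiocyte markers that entered, 0 passed limma for diet, and 1, 3 and 0 had an unadjusted p under 0.05, where 23.8% of all genes had. The summed linear signal from wild type chow to LASS2-/- high-fat diet, in the order of the groups above, was 19123, 19117, 26399 and 24393 for the stellate list. It was 346297, 366699, 315648 and 300288 for the hepatocyte list. The part of these cells in the lysosomal values was not tested.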

How the data were processed

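Liver RNA of 4 groups was measured with 1 array each. The authors deposited log2 signals per probe set, made with MAS5 per the submitters' processing notes; neither its version nor its scaling target is stated in those notes, and detection calls did not enter. Of 45037 probe sets, 34945 had a single symbol, 932 several and 9160 none here, and symbols follow the platform annotation and RefSeq GRCm38.p6. Before ratios, signals under an array's median were set to it (6.17, 6.28, 6.19 and 6.19 log2); a ratio with 1 array under it is a bound, with both there is none. Mean effects came from limma 3.58.1 in R 4.3.3, an additive fit with 4 arrays, 3 coefficients and a prior of 12.4 degrees of freedom. The ± is its moderated SE. The fit was run on simulated data in which variance followed signal by design, so that run cannot check this assumption for the real arrays. No batch is labelled, and the number of arrays limits precision. Genes with full values were those passing limma, at least 2-fold apart, or among the 4 highest and 4 lowest mean ratios; other lists gave up to 4 names, and names beyond these were chosen after values were seen. Genes, lists and tests were chosen with earlier results of these data known. Python 3.11.15, pandas 2.3.3, numpy 2.4.6 and matplotlib 3.10.9 were used. Alternatives changed the scaling, probe set, filter, moderation, floor and fold threshold.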

Additional observations from a re-analysis of the deposited data

How the results depend on the processing

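Of 116 counts and medians recomputed for the lysosomal genes, 98 lay within 1.5 times (counts) or 0.1 log2 (medians) of the value above and 18 moved. Of 36 medians, 1 changed sign: that of the mean genotype effect, from -0.02 to 0.03 log2 when probe sets were averaged. The 10 genes that rose and 1 that fell with diet became 0 and 0 without the trend, 6 and 0 with equal medians and 5 and 1 when all probe sets were averaged. The 1 that fell was lost, leaving 0, with no filter and with quantile normalization. Hexa, Psap and Arsa failed the threshold only without the trend. Leaving out _x_at and _s_at probe sets gave 1 gene that rose with genotype, Ctse. With the floor at the 25th percentile, 1 gene, Tfeb, was 2-fold lower with genotype on high-fat diet, 2, Ctse and Tfeb, were higher with diet in wild type and 1, Tfeb, was lower with diet in LASS2-/-. At 1.5-fold the higher counts were 1 and 2 for genotype on chow and high-fat diet and 4 for diet in LASS2-/-. When all probe sets of a gene were averaged, 0 genes were higher and 1, Ctsc, was lower with diet in wild type, and 1, Ctsc, was lower in LASS2-/-. Equal medians moved the chow genotype median of the lysosomal genes to -0.10 log2 and that of all genes from 0.01 to -0.09. Over all genes, limma calls for genotype numbered 106, and 52 with no filter, 22 with quantile normalization, 19 with equal medians, 39 with the mean of all probe sets and 0 without trend, and those for diet 1392, and 872, 719 and 0 with the last 3. A fit with values floored at the array medians, added after seeing the data, gave 10 genes that rose with diet, with Ctsd in place of Manba, and 1 that fell. The cause was not tested. No paired analysis was possible because each group held 1 array.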
